A study of Bos taurus with 2 samples.

Results

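The TSPY gene array of the short arm is a cluster of 44 annotated protein-coding gene copies in the male-specific region of the cattle Y chromosome. It runs from the first base of TSPY to the last base of LOC132344614, chrY:9169601-10382452 on the ARS-UCD2.0 assembly, a length of 1.21 Mb. Its members are the CpG sites in that interval that were covered by at least 10 PacBio reads. There were 52236 such sites of 974748 on the whole chromosome, 5.36% of them, and no site of the interval fell below the minimum.

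CpG methylation was measured in lung DNA of cattle (Bos taurus) with 1 PacBio HiFi library and 1 Oxford Nanopore Technologies (ONT) library. The DNA came from the lung of a fetus of a Wagyu sire and a Charolais dam, and the Y chromosome is therefore that of the Wagyu sire. No treatment or second genotype was included, and the platforms are the only groups. With 1 library each, no test between samples was possible, and every SD over CpGs, copies or repeat units given here describes variation along a single chromosome and not between animals. Lung is a somatic tissue and not a known site of TSPY expression, and no RNA was measured in the libraries used here. The paper describes RNA-seq of lung, among other tissues, from the animal that gave the Y assembly, and it was not used here.

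TSPY encodes the testis-specific protein Y-encoded, a member of the NAP/SET family of histone chaperones, expressed in spermatogonia and linked to germ cell proliferation. It is carried by the Y chromosome of most placental mammals as a multicopy gene, often in a tandem array of near-identical units. Such ampliconic genes are maintained as many copies, and CpG methylation of gene starts is commonly associated with a silent promoter, while gene bodies and repeats are usually methylated.

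The PacBio depth in the array had a median of 32 reads per CpG, with a range of 15 to 49 over CpGs and of 18 to 46 over the medians of units. The median of the whole chromosome was 40 reads. Elsewhere in the short-arm male-specific region the median was also 32 reads, but 125266 of those 193088 CpGs belong to the same repeat. Outside the repeat the median there was 30 reads. The ONT values carry no read count and their depth is unknown. Near-identical copies can exchange reads at alignment on both platforms, and the share of reads placed on a wrong copy was not tested.

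The array was highly methylated on both platforms. The mean PacBio level over its CpGs was 77.0% ± 18.9 (SD over CpGs, n = 52236), the median was 84.2% and the quartiles were 66.4% and 91.7%. The ONT mean was 68.7% ± 16.5 (SD over CpGs, n = 52236), with a median of 71.8% and quartiles of 59.1% and 81.2%. PacBio gave 58.0% of the sites a level of at least 80%, ONT gave 28.2% of them such a level, and 10.8% and 13.4% of the sites lay below 50%. ONT was lower at 76.0% of the sites, and subtracting the PacBio from the ONT level gave a mean of -8.33 percentage points. Over the sites Pearson's r between the platforms was 0.685 and Spearman's rho was 0.629, as descriptions of sites that share libraries and repeat sequence. ONT gives 2 rows per CpG, which were taken for its strands from their positions. They differed little on average, 68.2% for the lower row and 69.1% for the upper row.

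The CpG positions showed a sharp repeat period. Among pairs of CpGs at distances of 20 bp to 20 kb, the most frequent distance over 1 kb was 7541 bp, at which 6166 pairs were counted, while the median over all distances was 2225. A further peak stood 144 bp lower, at 7397 bp, with 4775 pairs. The median spacing of the 24 pairs of neighboring gene starts under 10 kb apart was 7408 bp, with a range of 7396 to 7541 bp, so that these genes lay 1 unit apart. The remaining neighboring starts lay farther apart, up to 225337 bp.

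**Figure D1:**
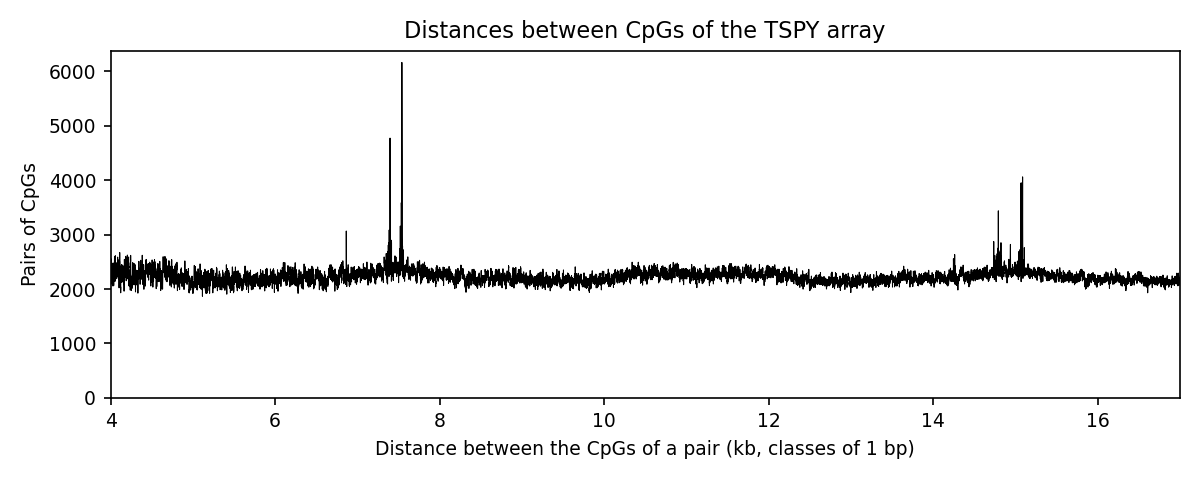
Number of pairs of CpGs (y axis) at each distance between them (x axis, kb, classes of 1 bp) over the 52236 CpGs of the array. The highest peak stands at 7541 bp and the next at 7397 bp, and both reappear as a group near 15 kb, the distance across neighboring pairs of units.

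The repeat continued where no gene was annotated. The CpG offsets of LOC132344575, the first copy of the modal gene length of 2133 bp with 86 CpGs, were matched along the chromosome, and a unit was counted where at least 0.5 of them were found within 2 bp. This gave 163 units inside the array, of which 44 held an annotated gene and 119 did not. The annotated genes together cover 8.02% of the array's length. The matches fell into 2 classes with nothing between them, 100 units at 0.953 to 1 of the template and 63 units at 0.570 to 0.628. CpGs shifted by more than 2 bp from the template do not count in this share. Complete units of the second class held a mean of 321 CpGs, against 322 in the first. Genes were annotated in 25 units of the first class and in 19 of the second.

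Unit length changed along the array. Of the 162 complete units, 104 were at least 7500 bp long and 54 measured 7300 to 7500 bp. The long units had a mean length of 7538 bp ± 8.001 (SD over units, n = 104) and the short units of 7395 bp ± 16.4 (SD, n = 54). Of the 59 units in the first 0.435 Mb, 53 were short and 3 long, and 26 of the annotated copies lay in them. Of the 104 units from LOC132344597 on, here with the incomplete last unit counted as long, 102 were long and 1 was short, and 18 held annotated copies. The short units lacked 7 CpG positions of the long ones, at offsets 5147 to 5265 in the unit, the most frequent distances of both classes being 144 bp apart. Genes were annotated in 25 of the 54 short units and in 18 of the 104 long ones. A further 4 units were shorter still, at 6698, 6865, 6867 and 6869 bp, and held no annotated gene. The units of 6865 to 6869 bp shared a run of 11 missing CpG positions at offsets 5672 to 5944.

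**Figure D2:**
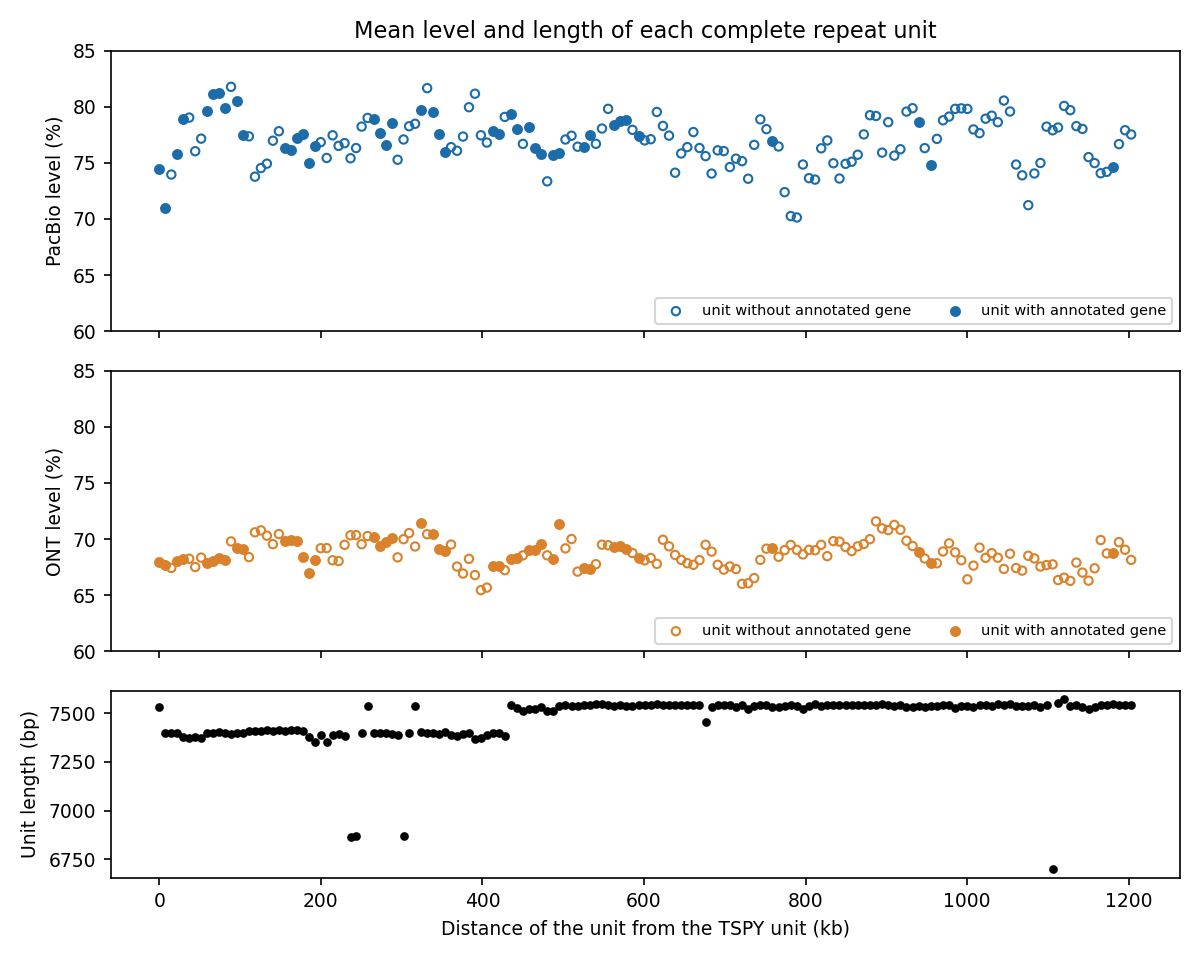
Mean PacBio level (top, %), mean ONT level (middle, %) and length (bottom, bp) of the 162 complete repeat units against their distance from the TSPY unit (kb). Filled points are units with an annotated gene and open points units without; PacBio levels stay between 70.1% and 81.8% and ONT levels between 65.4% and 71.6%, while the length steps up from mostly 7300 to 7500 bp to above 7500 bp after 0.435 Mb.

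Annotated gene starts fell at 2 places of the unit. In 21 copies the start lay within 2 bp of the template's start, here called the late start, and in 23 copies, TSPY among them, it lay 84 to 121 bp before the place where the template matched best. Of these early-start copies, 17 lay in units matched at 0.570 to 0.628 of the template and 6 in those at 0.953 to 1. Of the late-start copies, 2 and 19 did so. Gene ends were more uniform, since 36 of the 43 copies other than TSPY ended within 5 bp of their median end, which lay 2134 bp after the template's start. TSPY itself is annotated with 3196 bp and the other early-start copies with 2219 to 2256 bp. The gene table gives no exons, and in the study's own gene table all 44 copies lie on the plus strand, so that the start is the 5′ side. Offsets in the unit are counted, in the text that follows, from the place where the template's start matched in the unit of LOC132344597, 94 bp after the annotated start of that copy. In other units an offset names the CpG aligned to that place, and its distance from their own gene start can differ by some bases.

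The 44 copies were close to each other in mean level. Each copy was taken from its annotated start over 1 period of 7541 bp. In the 25 copies of short units this stretch runs into the next unit. The PacBio means had an average of 77.5% ± 1.98 (SD over copies, n = 44), a lowest value of 71.1%, a median of 77.6% and a highest value of 81.2%. The ONT means had an average of 68.8% ± 1.02 (SD over copies, n = 44), a lowest value of 67.2%, a median of 68.8% and a highest value of 71.4%. From single strand rows the ONT SD over copies was larger, 1.53 with the lower and 1.65 with the upper row. ONT was below PacBio in all 44 copies, by 3.56 to 13.2 percentage points. The order of the copies was not shared by the platforms. Over the 43 copies that lie whole in the array, Pearson's r between PacBio and ONT means was 0.160 and Spearman's rho was 0.144.

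TSPY, the first copy (chrY:9169601-9172796), had 327 CpGs and a median of 24 reads, and its unit mean was 74.4% for PacBio and 68.4% for ONT. Its neighbor LOC132344572 (chrY:9177131-9179362) was the lowest copy on PacBio at 71.1%, the only one more than 3 scaled median absolute deviations from the median, and had the lowest depth of all copies with 18 reads. On ONT the same copy stood at 67.6%, the 4th lowest of 44. LOC132344613 (chrY:10350027-10352282) was the third lowest on PacBio with 74.4% and had 68.8% on ONT. The low end of the PacBio order therefore held copies at 18, 24 and 35 reads. Over the 162 complete units Pearson's r between PacBio level and PacBio depth was -0.04.

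At the other end, LOC132344576 (chrY:9236322-9238454) had 81.2% on PacBio and 68.1% on ONT, LOC132344577 (chrY:9243718-9245850) 81.2% and 68.2%, and LOC132344579 (chrY:9265914-9268046) 80.5% and 69.2%. These copies lie within 31.7 kb and on ONT ranked 11th, 14th and 30th of 44 counted from the lowest, so that the first 2 lay below the ONT median. The last copy, LOC132344614 (chrY:10380205-10382452), ends the array, and only its 95 CpGs inside the gene are members. It had 79.4% on PacBio and 67.8% on ONT.

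**Figure D3:**
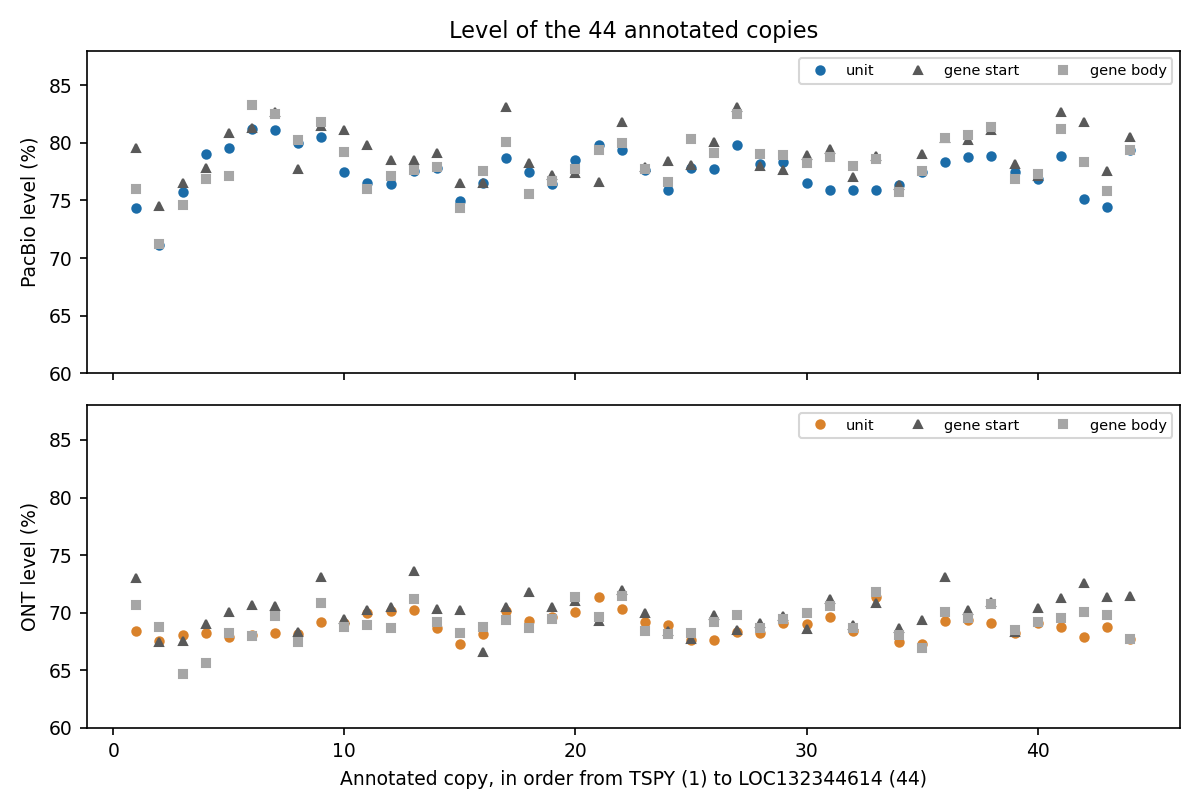
Level (%) of the 44 annotated copies in their order along the array, PacBio above and ONT below. Colored circles are the mean over the unit, triangles the mean within 500 bp of the annotated start and squares the mean over the gene body; most gene starts and bodies lie among or above the unit means, while on ONT the bodies reach down to 64.7% and the starts to 66.6%, below the lowest unit mean of 67.2%.

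Gene starts, taken over 500 bp on both sides together, were on average not less methylated than the rest of their units. Within 500 bp of the annotated start the PacBio level was 79.1% ± 2.08 (SD over copies, n = 44), with a range of 74.5% to 83.1%, and the ONT level was 70.1% ± 1.63 (SD over copies, n = 44), with a range of 66.6% to 73.6%. The rest of the unit was what remained of 1 period from 500 bp after the start, and so holds the stretch just before the next unit. The gene start exceeded the rest of its unit by 2.04 ± 2.05 points (SD over copies) on PacBio and by 1.69 ± 1.78 points on ONT. It was the lower of both in 5 of 44 copies on PacBio and in 7 of 44 on ONT. Over all aligned units the upstream side was uneven. On PacBio the 100 bp windows at offsets -500, -400 and -200 stood at 53.0%, 67.1% and 68.2%, those at -300 and -100 at 85.5% and 80.7%. On ONT the same windows stood at 43.3%, 61.1% and 69.3%, and at 72.8% and 76.1%. The windows at -500 and -400 were below the mean of their own unit in 159 and 149 of 162 units on PacBio. On ONT they were so in 162 and 153. At the TSPY start, where the array covers the downstream side only, the levels were 79.6% and 73.0%. The size of the excess of gene starts over the rest depended on the settings. On PacBio it was 3.06 points with a window of 250 bp and 5.41 with 1 kb, and on ONT 4.54 and 3.64. With the lower ONT row alone it was 3.40 points and with the upper row alone -0.02 points. Gene bodies stood at 78.3% on PacBio and 69.1% on ONT, and exceeded the rest of the unit after them by 1.11 ± 1.93 and 0.42 ± 1.66 points (SD over 43 copies). The body was the lower of both in 10 of 43 copies on PacBio and in 14 of 43 on ONT, and in the 21 late-start copies the ONT difference was -0.10 ± 1.88 points.

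Copies with the early start had lower PacBio levels than copies with the late start, at 76.6% ± 1.89 (SD over copies, n = 23) against 78.6% ± 1.53 (SD, n = 21). On ONT the groups were 68.7% ± 1.05 and 69.0% ± 0.983. The ranges of the groups overlapped on both platforms.

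Units with and without an annotated gene overlapped in level. In the 119 complete units without a gene PacBio averaged 76.8% ± 2.22 (SD over units) and ONT 68.6% ± 1.28, and the 43 complete units with a gene had 77.4% ± 1.99 and 68.8% ± 1.02. Long and short units differed as little, with 76.7% ± 2.19 and 77.5% ± 2.15 on PacBio, and 68.6% ± 1.16 and 68.8% ± 1.30 on ONT. Neighboring units resembled each other on each platform. Pearson's r between a unit and the next was 0.687 on PacBio and 0.694 on ONT (n = 161 pairs), and long reads that span neighboring units are shared by them. Between the platforms the unit means showed almost no relation, with Pearson's r of 0.026 and Spearman's rho of 0.035 over 162 units. The unit-to-unit waves of a few percentage points are thus seen on each platform but not at the same units.

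Most of the variation lay between positions of the unit and was repeated from unit to unit. The CpGs of every unit were aligned to those of a reference unit, that of LOC132344597, which has 329 CpG positions from offset -500 on. A complete unit matched 321 of them in the median, with a range of 299 to 329, and 297 positions were found in at least 95% of the units. The position in the unit accounted for 72.9% of the variance of the matched PacBio values and the unit for 1.30%. On ONT the shares were 82.8% and 0.53%. Position means of the first 81 units and of the following 82 had a Pearson's r of 0.983 on PacBio and 0.988 on ONT over 329 positions, and those of units with and without a gene 0.990 and 0.993.

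**Figure D4:**
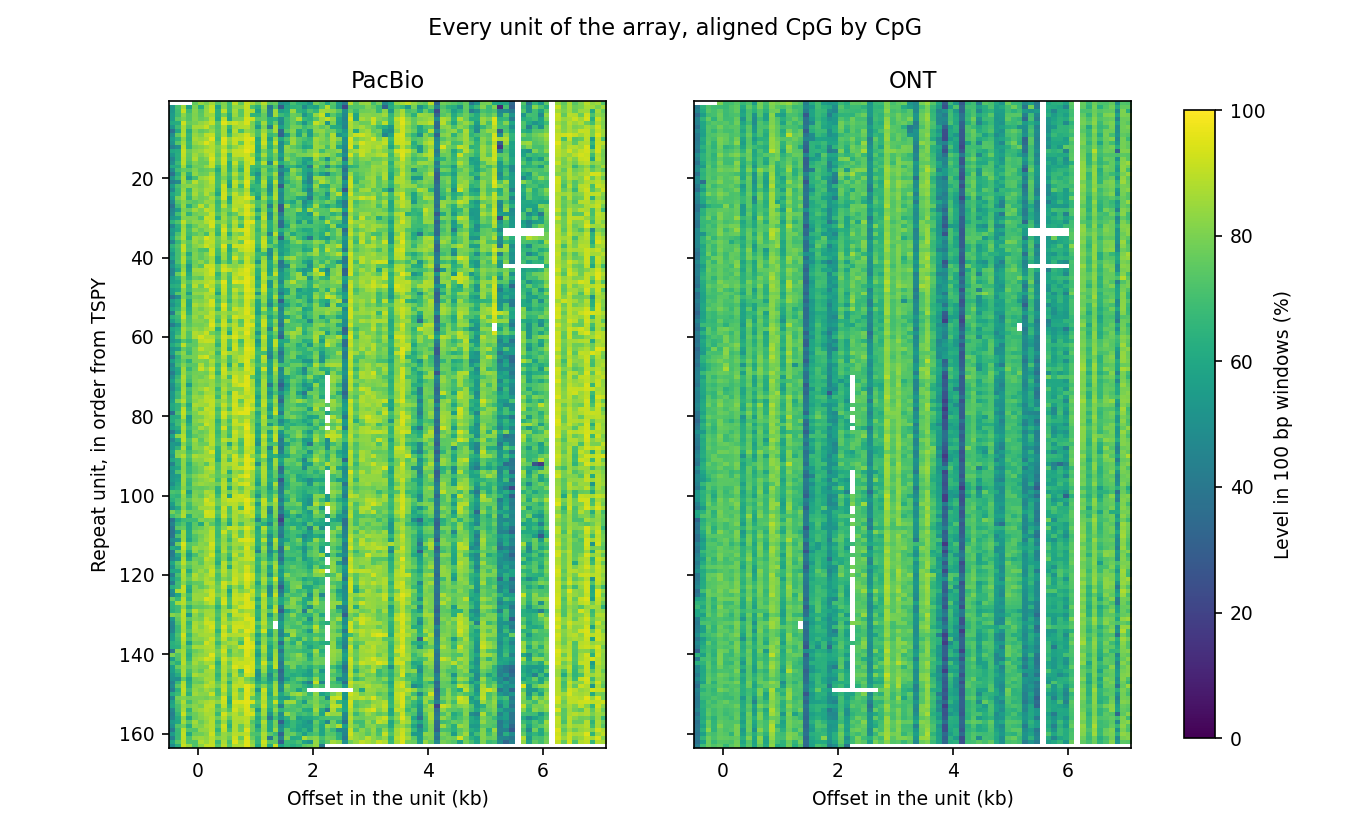
PacBio (left) and ONT (right) level in 100 bp windows (color, %) along the unit (x axis, offset in kb) in each of the 163 units of the array (y axis, in order from TSPY). Vertical stripes are positions that keep their level from unit to unit, such as the dark stripes at 1.4 and 4.1 kb; white marks windows without a matched CpG.

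At most positions, 269 of 329, the PacBio scores of the units varied by more than the SD of read counting, and at the others by no more than it. The SD over units had a median of 9.43 points over positions, and the SD that read counting alone gives at these depths had a median of 6.62 points. The score is a model's output and not a share of reads, so that these SDs are only roughly comparable. Departures of single CpGs from their position mean had a Pearson's r of only 0.131 between the platforms (n = 51977 values).

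The lowest CpG of the unit on PacBio, and the second lowest on ONT, lay outside the gene at offset 4171. In copies other than TSPY, whose annotated gene is longer, this CpG stood about 2 kb past the gene end. Its PacBio level was 16.8% ± 8.78 (SD over units, n = 162), with 148 units below 30%, and its ONT level was 19.7% ± 6.18, with 154 units below 30%. The PacBio score did not exceed 43.5% in any unit, nor the ONT level 40.4%. In the copies with an annotated gene the PacBio level of this CpG was 5% at the lowest, 16.4% in the median and 43.5% at the highest (n = 43). Its neighbors are 70 and 86 bp away, and it has no other CpG within 50 bp. The file also gives estimated counts of modified reads, whose share differs somewhat from the score. In TSPY this CpG, at position 9173870, had a score of 12.9%, an estimated 2 modified of 23 reads, 8.70% with a 95% Wilson interval of 2.42% to 26.8%, and an ONT level of 14.2%. In LOC132344577, at 9247892, it had the highest score, 43.5%, an estimated 13 modified of 28 reads, 46.4% with an interval of 29.5% to 64.2%, and an ONT level of 23.0%. The intervals belong to the estimated counts and cover counting error only.

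A small set of positions shared this low state. The CpG at offset 3307 had 19.9% ± 10.1 on PacBio and 17.8% ± 5.75 on ONT (SD over 161 units), the lowest position on ONT. Inside the gene the lowest was the CpG at offset 1460, with 25.5% ± 12.6 on PacBio and 23.8% ± 5.76 on ONT (SD over 163 units). The CpG at offset 5470 had 24.2% ± 12.01 and 26.1% ± 6.39 (SD over 153 units), and upstream of the gene the CpG at offset -432 had 26.7% ± 15.3 and 24.4% ± 9.96 (SD over 162 units). Of 329 positions, 11 on PacBio and 15 on ONT had a mean below 40%, and 10 were below it on both.

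The opposite state was more frequent. On PacBio 184 positions had a mean of at least 80% and 71 of at least 90%, while on ONT these numbers were 87 and 2. The highest PacBio position, at offset 2990, had 95.1% ± 1.54 (SD over 162 units) and did not fall below 87.0% in any of them. In TSPY it lies at 9172690, with a score of 93.4% and an estimated 23 modified of 24 reads, 95.8% with a 95% Wilson interval of 79.8% to 99.3%. Over all 329 positions the PacBio and ONT means had a Pearson's r of 0.842 and a Spearman's rho of 0.814.

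**Figure D5:**
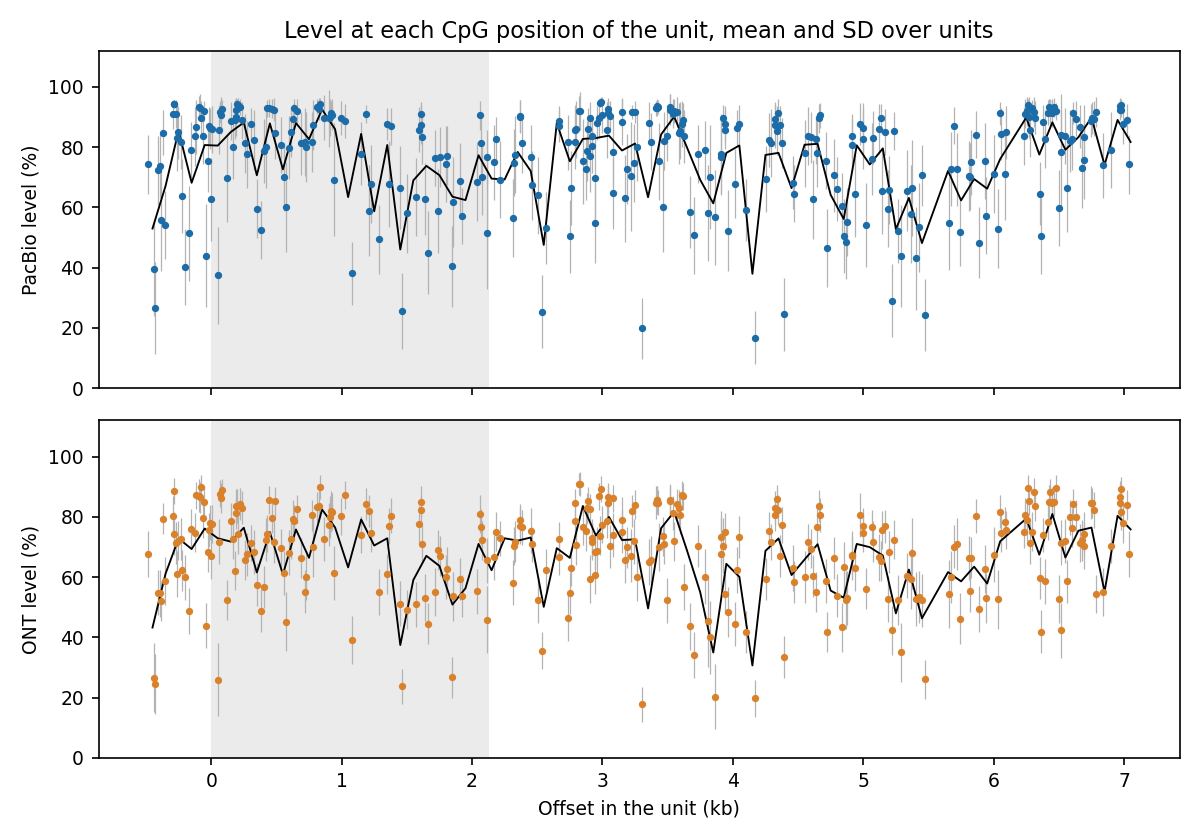
Level (%) at each of the 329 CpG positions of the unit against offset (kb), PacBio above and ONT below. Points and gray bars are the mean and SD over units, the black line joins means of 100 bp windows and the gray band spans the length of the template gene from offset 0; isolated low positions such as offsets 1460, 3307 and 4171 recur on both platforms.

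In windows of 100 bp the aligned units were lowest at offset 4100 to 4200, with 38.0% ± 6.31 on PacBio and 30.7% ± 4.61 on ONT (SD over 162 units), and that window was below the mean of its own unit in 162 of 162 units on both platforms. Next on PacBio came offset 1400, inside the gene, with 46.0% ± 9.61 and an ONT level of 37.4% ± 5.04 (SD over 163 units). Then came offset 2500, with 47.6% ± 8.03 on PacBio and 50.1% ± 4.21 on ONT, below the mean of its own unit in 161 of 161 units on both platforms. The windows at offset 5200, which overlaps the stretch that short units lack, and at offset 5400 stood at 52.8% ± 11.1 and 48.2% ± 9.43 on PacBio. The highest window on PacBio was at offset 800, within the first kilobase of the gene, with 92.5% ± 3.05, and it had 82.4% ± 3.197 on ONT. When the windows were counted from the annotated starts of the 44 copies instead, without aligning CpGs, the lowest windows were offset 4200 on PacBio, with 51.0%, and offset 4100 on ONT, with 43.96% (43 copies).

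Among windows of 100 bp the platforms differed most at offset 3800, where PacBio gave 61.3% ± 12.5 and ONT 35.0% ± 10.1 (SD over 162 units). At offset 1200 they differed the other way, with 58.7% ± 8.19 on PacBio and 70.5% ± 4.02 on ONT (SD over 163 units). The ONT rows, whose strand is an assumption, also differed at fixed positions. At 35 of the 329 positions the rows were more than 20 points apart on average, 18 with the lower and 17 with the upper row higher, and at all 35 the direction was the same in at least 90% of the units. The CpG at offset 182, near the gene start, had 90.6% ± 4.82 on the lower row and 33.7% ± 12.01 on the upper row, with the lower row higher in 161 of 161 units, and a PacBio level of 89.1% ± 6.397. The CpG at offset 6781 had 23.5% ± 10.6 on the lower row and 85.5% ± 7.38 on the upper row, with the upper row higher in 160 of 160 units, and 91.7% ± 4.94 on PacBio. With an ONT mean of 54.5%, it was the single position at which the platforms lay farthest apart.

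Positions with few neighboring CpGs were less methylated. The 64 positions with 0 to 2 other CpGs within 50 bp averaged 65.4% ± 18.1 (SD over positions) on PacBio and 58.1% ± 15.8 on ONT, the 181 positions with 3 to 5 had 76.8% ± 15.2 and 68.3% ± 14.1, and the 78 positions with 6 to 8 had 86.8% ± 8.65 and 78.1% ± 9.93. The 6 positions with at least 9 stood at 75.2% ± 12.3 and 72.0% ± 7.24. Over the 329 positions Pearson's r between this number and the level was 0.431 on PacBio and 0.443 on ONT.

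Units that differed in CpG spacing also differed in level at some positions. At 66 places, counted per position and side, at least 8 units had a neighboring CpG more than 2 bp nearer or farther than in most units, and a single sequence change can count at several of them. The differences were mostly small, with a median size of 2.85 points on PacBio and 4.11 on ONT, and 11 of the 66 places exceeded 10 points on both. At the 26 places where these units had the nearer neighbor, their level was higher on both platforms at 20 and lower on both at 2. At the 40 places where they had the farther neighbor, it was lower on both platforms at 25 and higher on both at 3. Calling models read the bases around a CpG, and the part of that in these differences was not tested.

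Among the places with the larger differences, the CpG at offset 2113 had its next CpG a median of 4 bp away in 72 units and 58 bp away in 89 units. The first group averaged 67.6% on PacBio and 55.1% on ONT, and the second 38.8% and 38.5%. At offset 5375 the next CpG stood a median of 3 bp away in 56 units, with 82.7% on PacBio and 80.2% on ONT, and 32 bp away in 100 units, with 57.4% and 61.0%. The values of the groups overlapped at both positions.

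One CpG near the gene start was high in 8 gene copies and low in most other units. It has offset 50 and lies 36 bp after the annotated start in all 21 late-start copies and 144 bp after it in all 23 early-start copies, and this position was picked after its values were seen. In 154 of 163 units its next CpG was 24 or 25 bp away, the PacBio level was 35.3% ± 12.7 (SD over units) with a range of 10.7% to 80.3%, and the ONT level was 23.7% ± 7.06 with a range of 8.19% to 50.1%. In 8 units the next CpG was only 11 bp away. There the PacBio level was 81.1% ± 11.6 (SD over units, n = 8) with a range of 60.7% to 93.0%, and the ONT level was 69.3% ± 6.89 with a range of 63.0% to 82.4%. On ONT these 8 units lay above the 154, and on PacBio 3 of the 154 units reached over 60%. The highest of these was TSPY itself, with 80.3% on PacBio and 21.6% on ONT.

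All 8 of these units held an annotated gene with the early start. They were LOC132344586 with 88.7% on PacBio and 66.2% on ONT, LOC132344597 with 91.2% and 63.0%, LOC132344598 with 68.9% and 63.4%, LOC132344599 with 87.0% and 71.1%, LOC132344600 with 60.7% and 70.7%, LOC132344601 with 74.9% and 75%, LOC132344602 with 93.0% and 63.0%, and LOC132344603 with 84.2% and 82.4%. In 7 of them this CpG lies between positions 9604817 and 9665008, and in LOC132344586, farther toward TSPY, at 9362255. Both ONT strand rows were high in them, with means of 60.7% on the lower and 78.0% on the upper row against 21.5% and 25.8% in the 154 units. A ninth copy, LOC132344572, had its next CpG 10 bp away and stood at 13.4% on PacBio with 20 reads and at 24.1% on ONT. With it, the 9 units with the nearer neighbor averaged 73.6% on PacBio and 64.3% on ONT, and on both platforms their range overlapped that of the 154 units. The 14 early-start copies with the wider spacing had 45.8% ± 16.5 on PacBio and 23.996% ± 7.43 on ONT.

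Compared with its flanks of 500 kb on both sides, the array differed by 1.05 points on PacBio and 0.63 points on ONT. With flanks of 250 kb the differences were 0.14 and -0.02 points, in bins of 5 kb with at least 100 CpGs 0.13 and -0.25, and against the rest of the repeat 1.03 and -0.20, so that the ONT direction turned. With flanks of 1 Mb they were 1.94 and 1.19 points, and in bins of 5 kb with equal weight 5.12 and 4.45 points. The flanks are largely the same repeat. The run of units spaced under 2 periods apart began at 8884289, before TSPY, and its last unit began at 13016488, with 551 units in all, of which 38 precede the array and 350 follow it. The right flank, wholly inside this run, had 76.1% on PacBio and 68.6% on ONT, and the part of the left flank inside it had 78.0% and 69.5%. The part of the left flank outside the run had 9.30 CpGs per kb against 43.1 in the array, 60.9% on PacBio and 53.1% on ONT, so that the array stood 16.1 and 15.6 points above it. Its median depth was 40 reads against 32 in the array, and the part of depth in this difference was not tested.

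The repeat to the right of the array was about as even as the array, and the repeat to its left was more even on PacBio. In stretches of 1 period the SD of the mean level was 2.19 points on PacBio and 1.23 on ONT over 160 stretches of the array, and 2.28 and 1.21 points over 66 stretches of the right flank. Over the 37 stretches of the left flank inside the repeat the SDs were 1.41 and 1.09 points. The 28 stretches of the left flank outside the repeat had SDs of 8.41 and 7.18 points, with a median of 52 CpGs per stretch against 325 in the array.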

How the data were processed

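The deposited PacBio file gives per CpG, with strands combined, a modification score in percent, the covering reads as a count and estimated counts of modified and of unmodified reads. The authors called HiFi reads with Primrose, aligned them with pbmm2 and summarized them with aligned_bam_to_cpg_scores. The deposited ONT file gives a percent per strand row and no depth. The authors used Dorado, Winnowmap and modbam2bed, with calls between 20% and 80% probability discarded. The files run in opposite directions, and assembly positions were obtained by mirroring the PacBio positions and shifting the ONT positions by a constant. This placement is an assumption, under which 100% of the sites in the array had a value on both ONT rows. The strand of each ONT row was assumed from its position in the CpG. The level is the PacBio score and the mean of the 2 ONT rows, and exact zeros, 0.0325% of the ONT rows in the array, may be missing calls.

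No test was run, since each platform has 1 library. Gene positions came from the ARS-UCD2.0 gene table. Template matching and the alignment of units (matched CpGs score 1, a change of shift costs 1.5, shifts up to 900 bp) were tested on simulated data, in which 60 of 60 units were found. The simulated units held no shift inside the template, so the finding of units at low matches, like the 63 at 0.570 to 0.628, was not tested. Named copies were TSPY, the last copy, the 3 lowest and 3 highest PacBio unit means and copies beyond 3 scaled median absolute deviations. The members and lists were chosen with earlier results of these data known. Alternatives were coverage minimums, read weighting, estimated counts, ONT rows, windows, flanks and unit extents. Python 3.11.15, numpy 2.4.6, pandas 2.3.3 and scipy 1.17.1 were used.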

Additional observations from a re-analysis of the deposited data

Results flagged for a closer look

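In 14 of 74 windows of 100 bp along the aligned unit, 1 platform lay above its own array mean and the other below it, and in 9 of them the departures exceeded a margin of 1.14 points on PacBio and of 1.25 on ONT. The PacBio margin is a 95% counting error that counts each read once per unit, and the ONT margin was set with the PacBio read numbers, since ONT depth is unknown, and is no measured ONT error. No difference between the platforms was tested, and in no window did both directions hold in at least 80% of the units. PacBio lay above and ONT below at offset 700 (5.65 and -2.27 points), offset 4000 (3.57 and -8.59), offset 4500 (3.80 and -2.83), offset 5100 (2.58 and -1.51) and offset 6500 (2.132 and -2.17). PacBio lay below and ONT above at offset 1200 (-18.29 and 1.81 points), offset 2200 (-7.74 and 4.22), offset 2400 (-4.91 and 4.47) and offset 5000 (-2.75 and 1.27). The window at offset 1200 was below the PacBio unit mean in 161 of 163 units and above the ONT unit mean in 111 of 163.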

How the results depend on the processing

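Of 102 alternative values for 17 results, 81 stayed within the tolerance set for them, 17 moved and 4 changed sign. The tolerances of ONT levels were set with PacBio read numbers, since ONT depth is unknown, and are no measured ONT errors. Mean levels of the array, the platform difference and the depth ratio stayed within their tolerances under every alternative run for them. The array minus its flanks on ONT changed sign with flanks of 250 kb (-0.0155 points) and in bins of 5 kb with at least 100 CpGs (-0.25), and, in a comparison chosen after seeing the data, against the rest of the repeat (-0.20). With bins of equal weight the flank difference was 5.12 points on PacBio and 4.45 on ONT, and against the flank outside the repeat, also chosen after seeing the data, 16.1 and 15.6. The ONT gene start minus the rest of the unit changed sign with the upper row alone (-0.0176 points). With windows of 1 kb the PacBio gene start was 81.6%, or 5.41 points above the rest, and with windows of 250 bp the ONT gene start was 73.1%. The SD over copies on ONT was 1.53 with the lower row and 1.65 with the upper row, and r between platforms was 0.608 and 0.593. The period was 7408 bp from gene starts, 7397 bp up to the first gap over 100 kb between genes, and 15068 bp after it, where 15068 bp held 2516 pairs and 7544 bp 2487. At a match of at least 0.7, 100 units were found. With windows of 250 bp the lowest window began at offset 5250 on both platforms. The cause of these changes was not tested. Read weighting and estimated counts do not apply to ONT, nor the ONT rows to PacBio levels, and no r was computed with read weighting. No paired analysis was possible because each group holds 1 library. A single PacBio CpG rests on a median of 32 reads, which limits its precision, and 1 library per platform leaves out any spread between animals.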

Other observations

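The repeat beyond the gene array had a similar methylation pattern and held no annotated protein-coding genes. The array was itself set as the run of protein-coding genes that begins with TSPY, so their absence just past its end follows from that. The 38 units before the array had a mean level of 78.0% ± 1.47 on PacBio and 69.5% ± 1.06 on ONT (SD over units), and 349 complete units after it had 75.7% ± 2.33 and 68.8% ± 1.37. The CpG at offset 4171 had means of 16.8% and 22.5% before the array and of 13.6% and 18.6% after it. Position means had a Pearson's r to those of the array of 0.986 on PacBio and 0.988 on ONT before it (327 positions) and of 0.991 and 0.990 after it (326 positions). Units were matched by their CpG spacing, which these positions therefore share.

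The gene table places 3 pseudogenes in the repeat after the array and no other gene there outside the 44 copies. LOC132344615 (chrY:12950410-12952634) had 74.9% on PacBio and 68.0% on ONT over its unit, LOC132344616 (chrY:12973008-12975233) 74.4% and 67.5%, and LOC132344617 (chrY:12987467-12989689) 77.5% and 68.0%. Their starts, within 500 bp, stood at 78.4%, 74.8% and 80.8% on PacBio and at 69.2%, 68.3% and 68.9% on ONT. All 6 of these start levels lay within the range of the 44 annotated copies.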
